A study of Mus musculus with 12 samples.

Results

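Lamina contacts were examined at 5 genes of early mouse embryos, Dppa2, Dppa4, Nr5a2, Zfp42 and Duxf3, out of 20140 protein-coding genes on chromosomes 1 to 19. They were chosen by their measured state: at the 4-cell stage each lay in a lamina-associated domain (LAD) of only control embryos or only embryos given an siRNA against Rif1. Those states are therefore given as a description, with no test. Dppa2 and Dppa4 are neighbours, so the 5 genes stand for 4 loci.

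Embryos of the cross (C57BL/6J xCBA) x DBA/2J received 20 µM of siControl or siRif1 as zygotes, 17 to 18 h after hCG. Every group, controls included, was injected again at 46 to 48 h with AID-Dam-LaminB1 (20 ng/µL), Tir1 (250 ng/µL) and membrane-eGFP (100 ng/µL) and was kept in 500 µM auxin, which degrades the fusion until it is washed out. The fusion joins a bacterial adenine methyltransferase to lamin B1 and so marks DNA near the nuclear lamina. Auxin was removed at 54 h for 4-cell embryos, collected at 60 to 62 h, and at 66 h for 8-cell embryos, collected at 72 to 74 h. The 12 samples formed 4 groups of 3 (siControl and siRif1 embryos of each stage), and each sample pooled 16 to 24 blastomeres from 4 to 6 or from 2 to 3 embryos. The authors deposited a single LAD list per group, made from its 3 replicates on a 100-kb grid. Replicate spread and read depth are thus unknown, no p-value can be given for any difference below, and the lists hold no RNA with which to check the knockdown or the genes' expression. LADs covered 32.9% of the span in siControl 4-cell embryos and 42.9 to 44.7% in the other 3 groups.

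These genes belong to the period when the embryo's own genome starts to be transcribed. Duxf3 encodes the double homeobox factor Dux, which activates genes of the 2-cell stage, and Dppa2 and Dppa4 encode SAP-domain proteins that bind chromatin together and can act upstream of Dux. Nr5a2 encodes an orphan nuclear receptor that activates early embryonic genes, and Zfp42 encodes the zinc finger protein Rex1, a relative of YY1 and a marker of naive pluripotency. Genes at the lamina are, in general, less often transcribed than genes in the nuclear interior.

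The promoters of the 3 genes in siRif1 4-cell LADs are shown because the assay reads methylated GATC, the sequence that Dam modifies, and because their annotated starts lay in those LADs. For each gene the 250 bases before the start are given 5′ to 3′ on the minus strand of GRCm38.p6 (RefSeq), at chr8:43307010-43307259 for Zfp42, chr10:58233090-58233339 for Duxf3 and chr1:136960449-136960698 for the outer of the annotated starts of Nr5a2. Capitals mark GATC, which reads the same on both strands, and the octamer ATTTGCAT, the recognition sequence of POU factors, searched on both strands.
Zfp42: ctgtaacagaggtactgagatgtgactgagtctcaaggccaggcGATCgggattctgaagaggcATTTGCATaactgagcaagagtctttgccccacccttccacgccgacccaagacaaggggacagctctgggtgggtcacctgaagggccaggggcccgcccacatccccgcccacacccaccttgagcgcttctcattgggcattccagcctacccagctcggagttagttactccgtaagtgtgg
Duxf3: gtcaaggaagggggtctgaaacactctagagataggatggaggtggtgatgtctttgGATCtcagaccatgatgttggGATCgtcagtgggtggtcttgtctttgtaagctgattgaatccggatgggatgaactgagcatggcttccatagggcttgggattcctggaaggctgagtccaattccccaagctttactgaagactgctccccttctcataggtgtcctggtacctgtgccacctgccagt
Nr5a2: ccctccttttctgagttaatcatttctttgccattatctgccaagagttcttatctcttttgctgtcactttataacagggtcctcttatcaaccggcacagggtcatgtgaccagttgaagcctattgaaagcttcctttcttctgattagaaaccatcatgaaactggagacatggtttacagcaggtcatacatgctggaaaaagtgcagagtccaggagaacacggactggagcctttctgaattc
The Zfp42 promoter held 1 GATC and 1 octamer, the Duxf3 promoter held 2 GATC, and neither sequence was found in this window of Nr5a2. Of 32851 RefSeq promoter windows of this length, 41.9% held GATC and 1.60% held the octamer. The motifs did not overlap. A 100-kb LAD call rests on many GATC sites, so these matches describe the sequences and not the calls.

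In siRif1 4-cell embryos all 5 genes had a state that none of the other 3 groups shared. Dppa2 and Dppa4 were LAD in siControl 4-cell, siControl 8-cell and siRif1 8-cell embryos and outside LADs in siRif1 4-cell embryos. Nr5a2, Zfp42 and Duxf3 were LAD in siRif1 4-cell embryos and outside LADs in the other 3 groups. Thus 2 members were in LADs of siControl 4-cell, 3 of siRif1 4-cell, 2 of siControl 8-cell and 2 of siRif1 8-cell embryos, where 24.7%, 24.0%, 26.3% and 24.2% of all protein-coding genes were.

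At the 4-cell stage the comparison asks which regions differ in lamina contact when Rif1, a chromatin protein of replication timing, is depleted. LAD in siRif1 alone were 3 members, against a background of 7.37% of protein-coding genes (1484 genes), and LAD in siControl alone were 2 members, against 8.08% (1628 genes). Nothing is read from these counts, since the contrast chose the genes. The 8-cell states are likewise only a description, since the members were chosen with earlier results of these data known. Of the 1628 genes LAD in siControl but not siRif1 4-cell embryos, 14.4% were LAD in both 8-cell lists, like Dppa2 and Dppa4. Of the 1484 genes LAD in siRif1 but not siControl 4-cell embryos, 25.1% were outside LADs in both 8-cell lists, like Nr5a2, Zfp42 and Duxf3. Over all 4 lists the pattern of Dppa2 and Dppa4 was held by 235 genes (1.17%) and that of the other 3 members by 373 genes (1.85%).

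At the 8-cell stage no member differed between siControl and siRif1. The background there was 7.33% of genes LAD in siRif1 alone and 9.37% LAD in siControl alone. From the 4-cell to the 8-cell stage no member differed in siControl embryos, with 11.2% of genes LAD at the 8-cell stage alone and 9.59% at the 4-cell stage alone. In siRif1 embryos 2 members were LAD at the 8-cell stage alone (background 8.83%) and 3 at the 4-cell stage alone (background 8.58%). Both comparisons of stages use a 4-cell list that also enters the contrast that chose the genes, so their counts carry no further information.

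**Figure D1:**
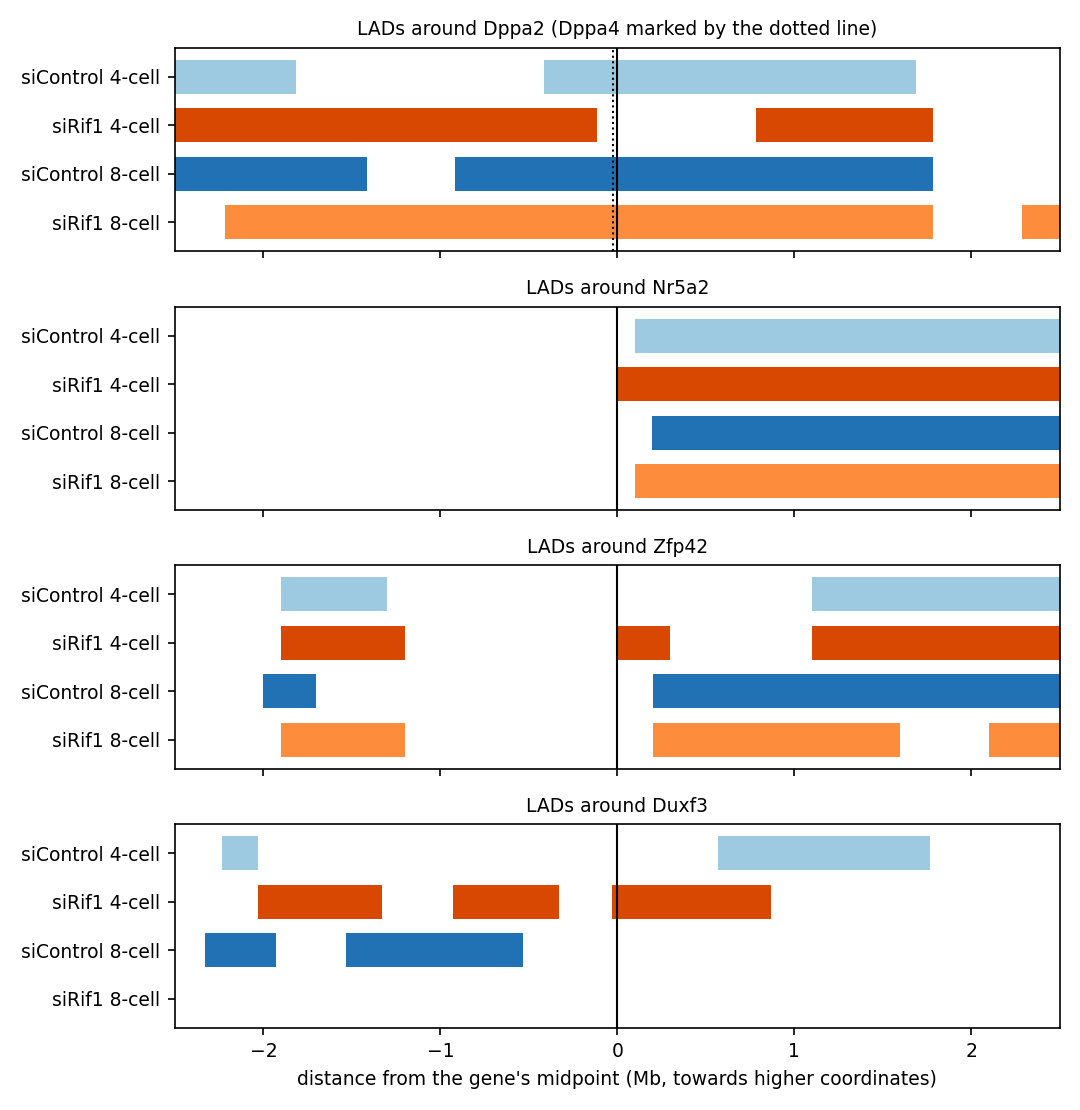
LADs (bars) in the 4 groups over the 5 Mb around Dppa2, Nr5a2, Zfp42 and Duxf3, by distance in Mb from the gene's midpoint (solid line). The siRif1 4-cell row has a gap at Dppa2, a border at Nr5a2 and Zfp42 and a LAD over Duxf3, and the siRif1 8-cell row is empty around Duxf3.

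Dppa2 (chromosome 16, 48310274 to 48319513) and Dppa4 (48283735 to 48294292) lay wholly inside LADs in 3 lists and wholly outside in siRif1 4-cell embryos. The enclosing LAD was 2.1 Mb long in siControl 4-cell (47900001 to 50000000), 2.7 Mb in siControl 8-cell (47400001 to 50100000) and 4.0 Mb in siRif1 8-cell embryos (46100001 to 50100000). The list of siRif1 4-cell embryos instead showed a gap of 0.9 Mb (48200001 to 49100000) between LADs of 3.2 Mb and 1.0 Mb. The gap was thus an opening within a LAD, with its outer flanks in LADs of both 4-cell lists. For Dppa2 the midpoint was 415 kb inside the nearest border in siControl 4-cell, 115 kb outside in siRif1 4-cell, 915 kb inside in siControl 8-cell and 1785 kb inside in siRif1 8-cell embryos. Dppa4 lay 389 kb inside, 89.0 kb outside, 889 kb inside and 1811 kb inside in the same order. Both genes were therefore deepest inside a LAD in siRif1 8-cell embryos, while siRif1 4-cell embryos alone had them outside.

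The gap held 9 protein-coding genes, all with the same states as Dppa2 in the 4 lists. Beside Dppa4 and Dppa2 they were Morc1, a germ-cell gene that silences transposons, the T-cell adaptor gene Trat1, the resistin-like genes Retnlb, Retnla and Retnlg, and Dzip3 and Cip2a. The nearest protein-coding gene on the other side, Gm52257, 229 kb from Dppa4, and the adhesion gene Nectin3, 1846 kb away, were LAD in all 4 lists. Stretches LAD in siControl alone numbered 370 at the 4-cell stage, with a median length of 0.3 Mb and an upper quartile of 0.6 Mb. This stretch of 0.9 Mb was thus among the longer ones. A stretch reached through a gene in it is more likely to be long, so nothing is read from its length.

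Nr5a2 (chromosome 1, 136842562 to 136960448) lay beside a border that the 4 lists placed within 200 kb of each other, and the gene spanned it only in siRif1 4-cell embryos. A LAD began at 137000001 in siControl 4-cell, 136900001 in siRif1 4-cell, 137100001 in siControl 8-cell and 137000001 in siRif1 8-cell embryos. The midpoint was 98.5 kb outside, 1.50 kb inside, 198 kb outside and 98.5 kb outside in that order. The difference between siControl and siRif1 was 1 bin of 100 kb at both stages, and the midpoint was on the inner side only in siRif1 4-cell embryos. There the LAD covered 51.3% of the gene (60448 bases), including both annotated starts, at 136960448 and 136953630. Single-bin stretches made up 121 of the 676 stretches LAD in siRif1 alone at the 4-cell stage (17.9%).

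The surroundings of Nr5a2 were the most alike between lists among the 5 genes. The 2.5 Mb at lower coordinates were outside LADs but for 0.06% in siRif1 4-cell embryos, and the 2.5 Mb at higher coordinates were 92.1 to 99.9% LAD. Only 5.88% of the 100-kb bins in the 5 Mb were LAD in some but not all lists, against a median of 37.3% over protein-coding genes. On its lower side Zfp281, a zinc finger gene of pluripotent cells, and the kinesin gene Kif14 were outside LADs in all 4 lists. On the upper side the leukocyte phosphatase gene Ptprc, 1218 kb away, and Atp6v1g3 were LAD in all 4. Over all LADs, 32.5% of siControl 4-cell borders had a siRif1 4-cell border of the same kind within 100 kb, and the median offset was 400 kb.

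Zfp42 (chromosome 8, 43295067 to 43307009) lay at the edge of a LAD of 300 kb (43300001 to 43600000) in siRif1 4-cell embryos. The midpoint was 1.04 kb inside it, and 58.7% of the gene (7009 bases), with the start at 43307009, was covered. In siControl 4-cell embryos the nearest border was 1099 kb away, and both 8-cell lists placed it 199 kb away, at 43500001. Zfp42 and Nr5a2 were the members closest to a border inside a LAD, and Dppa4 at 89.0 kb was the closest outside. The 1484 genes LAD in siRif1 but not siControl 4-cell embryos had a median distance of 330 kb inside the border. Of them, 21.8% (324) lay within 100 kb of it.

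The genes around Zfp42 split at this border. Triml1 and Triml2 at lower coordinates, 146 and 114 kb away, were outside LADs in all 4 lists. The testis protease genes Adam26b and Adam26a, 223 and 271 kb away, were outside in siControl 4-cell embryos and LAD in the other 3 groups. Their states thus matched those of Zfp42 at the 4-cell stage and not at the 8-cell stage.

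**Figure D2:**
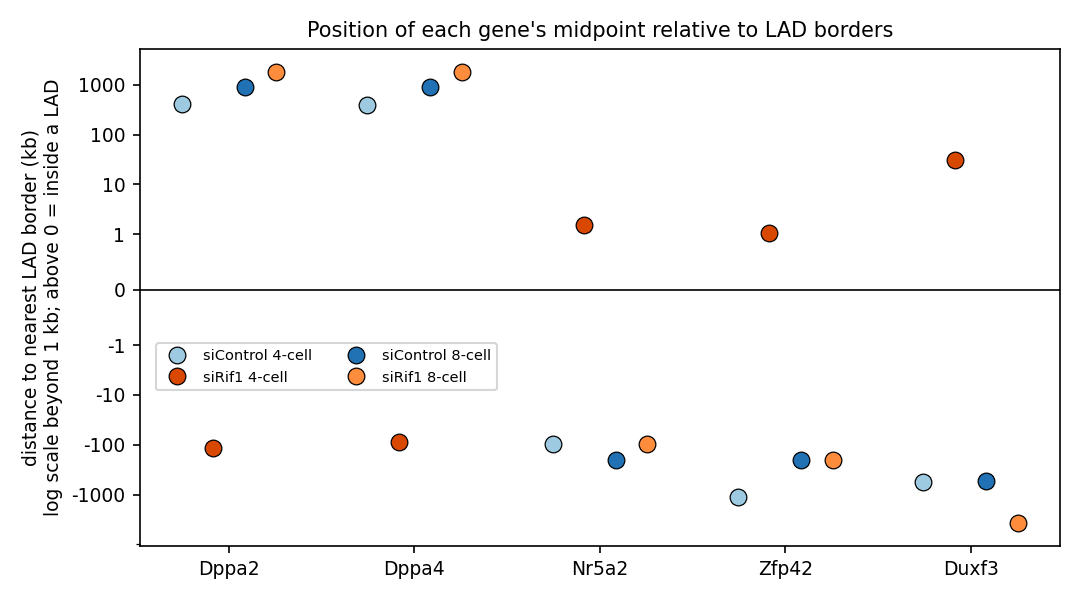
Distance in kb (log scale beyond 1 kb) from each gene's midpoint to the nearest LAD border, positive inside a LAD and negative outside, with 1 point per group's list and no error. Points of siRif1 4-cell embryos lie on the other side of 0 from the other 3 groups at each gene, by 1.04 kb at Zfp42 and 1.50 kb at Nr5a2.

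Duxf3 (chromosome 10, 58229505 to 58233089) lay in a LAD of 0.9 Mb (58200001 to 59100000) in siRif1 4-cell embryos, 31.3 kb inside its border. It was 569 kb outside the nearest LAD in siControl 4-cell, 531 kb outside in siControl 8-cell and 3731 kb outside in siRif1 8-cell embryos. In the last group the gene stood in a LAD-free region of 7.5 Mb (54500001 to 62000000). Duxf3 thus lay in a LAD in siRif1 4-cell embryos and farther from one than any other member in siRif1 8-cell embryos, while in siControl embryos the nearest LAD lay at higher coordinates at the 4-cell stage (from 58800001) and at lower coordinates at the 8-cell stage (to 57700000).

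The stretch LAD in siRif1 alone at the 4-cell stage spanned 0.6 Mb here (58200001 to 58800000) and held 8 protein-coding genes with the same 4 states: the neighbouring LOC100504180 and Gm4981, Gcc2, Lims1, the nuclear pore gene Ranbp2, Ccdc138, and Edar, a receptor of ectodermal development. Smpdl3a, 428 kb away in a separate LAD, had these states too. Dux genes lie in a tandem repeat array, where reads from near-identical copies cannot be placed at a single copy. How such reads were treated is not given in the sources used here, and their part in the call at Duxf3 was not tested. With every LAD border moved inwards by 1 bin of 100 kb, Duxf3, Nr5a2 and Zfp42 were outside LADs in siRif1 4-cell embryos too, and with borders moved outwards Nr5a2 was LAD in siControl 4-cell and siRif1 8-cell embryos and Dppa4 in siRif1 4-cell embryos.

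The surrounding 5 Mb were richer in LADs at Dppa2, Dppa4, Nr5a2 and Zfp42 than at the median protein-coding gene in every list. At Duxf3 they were so in the 4-cell lists only. Each member was chosen for lying in a LAD of a 4-cell list, while 57.4% of all protein-coding genes were outside LADs in all 4 lists. These levels are therefore not independent of the choice. For Dppa2 the coverage was 55.7% in siControl 4-cell, 67.7% in siRif1 4-cell, 75.7% in siControl 8-cell and 84.3% in siRif1 8-cell embryos, and for Dppa4 it was 56.2%, 68.2%, 76.2% and 83.8%. Nr5a2 stayed between 46.0% and 50.0%. Zfp42 had 40.0%, 48.0%, 52.0% and 50.0% in the same order of groups. Duxf3 had 28.0%, 44.0%, 28.0% and 0%. The medians over protein-coding genes were 20.6%, 28.0%, 31.7% and 28.2%. Duxf3 thus had the widest range of the members and Nr5a2 the narrowest.

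**Figure D3:**
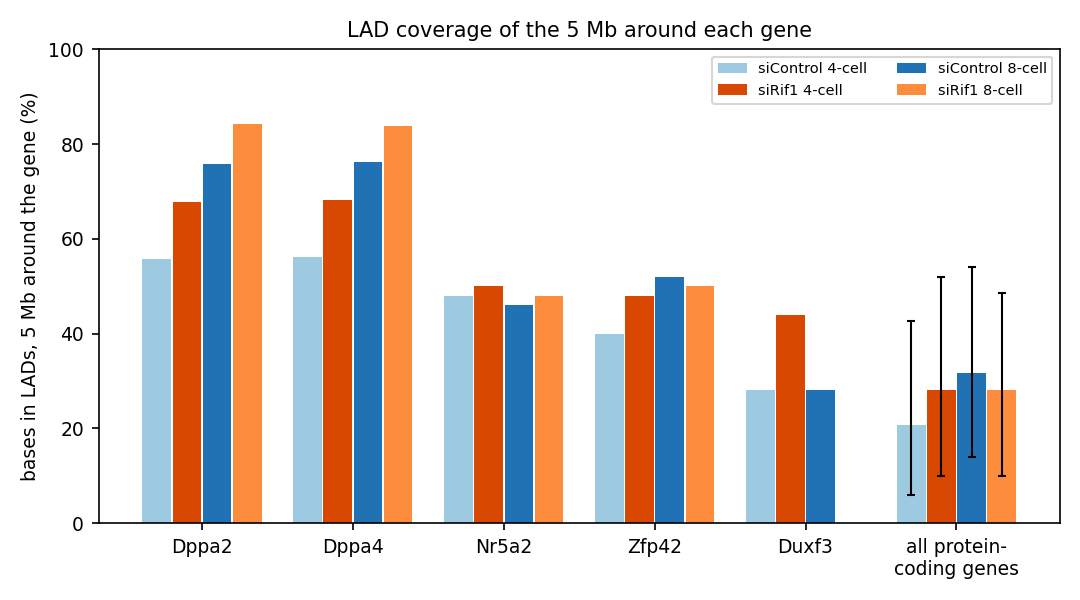
Percent of bases in LADs in the 5 Mb around each gene, by group, beside the median over 20140 protein-coding genes with bars for the quartiles. Members' bars are single pooled lists with no error, and Duxf3 has no bar in siRif1 8-cell embryos because its window holds 0% LAD.

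At the 4-cell stage the 5 Mb around every member had more LAD bases in siRif1 than in siControl embryos, by 12.0 percentage points at Dppa2 and Dppa4, 1.97 at Nr5a2, 8.00 at Zfp42 and 16.0 at Duxf3. Each window includes the differing stretch by which its gene was chosen, so these differences are not independent of the choice. That stretch was LAD in siRif1 alone over 0.1 Mb at Nr5a2, 0.3 Mb at Zfp42 and 0.6 Mb at Duxf3. At Dppa2 and Dppa4 it was LAD in siControl alone over 0.9 Mb, against the direction of the difference. The median difference over protein-coding genes was 2.00 points (quartiles -4.00 and 15.2). Dppa2 and Dppa4 thus lay outside LADs in siRif1 embryos while the 5 Mb around them held more LAD bases than in siControl embryos. The 2.5 Mb at lower coordinates of Dppa2 were 44.0% LAD in siControl and 95.4% in siRif1 embryos, and the 2.5 Mb at higher coordinates 67.4% and 40.0%. The sign depended on the window: at Dppa2 the difference was -15.7 points over 2 Mb and -6.15 over 10 Mb, at Dppa4 -14.45 and -5.89, and at Zfp42 15 and -16.0.

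At the 8-cell stage the differences were 8.60 points at Dppa2, 7.56 at Dppa4, 2 at Nr5a2, -2 at Zfp42 and -28.0 at Duxf3, with a median of 0 over protein-coding genes (quartiles -12.0 and 6.00). At Duxf3 the difference was positive at the 4-cell stage and negative at the 8-cell stage over 2, 5 and 10 Mb alike, from 53.4 to 4.00 points and from -23.4 to -20.7 points over 2 and 10 Mb. At Dppa2 and Dppa4 it was -0.85 and -1.11 points over 10 Mb.

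**Figure D4:**
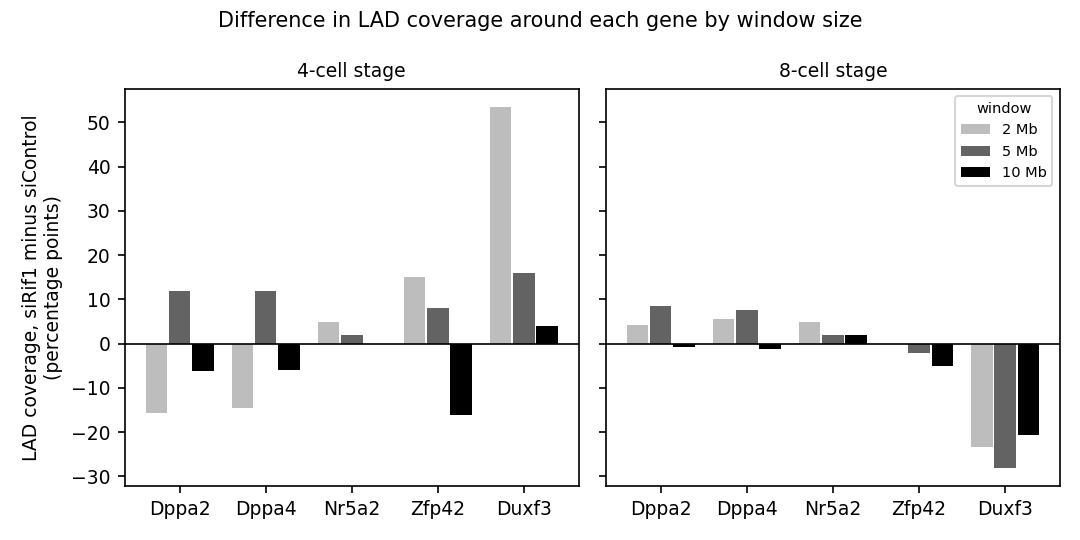
LAD coverage around each gene in siRif1 minus siControl embryos, in percentage points, over windows of 2, 5 and 10 Mb at the 4-cell and the 8-cell stage. Bars of Dppa2 and Dppa4 at the 4-cell stage change sign between 2 and 5 Mb, and Duxf3 keeps its sign within each stage.

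The neighbourhoods shared few other features. All 5 lay in regions with fewer protein-coding genes than the median of 64 per 5 Mb. There were 21 around Dppa2 and Dppa4, 24 around Zfp42, 34 around Duxf3 and 46 around Nr5a2. LADs held 24.7% of protein-coding genes on 32.9% of the span in siControl 4-cell embryos. In siRif1 4-cell embryos they held 24.0% on 43.5%. The members were chosen by their 4-cell LAD states, so this low density is not independent of the choice. Bins LAD in some but not all lists made up 58.8% of the window at Dppa2 and Dppa4, 43.1% at Zfp42 and 74.5% at Duxf3. The Jaccard index between siControl and siRif1 LADs in the window, shared over all LAD bins, was 92.3% at Nr5a2, 84.0% at Zfp42, 45.5% at Dppa4, 44.2% at Dppa2 and 9.09% at Duxf3 at the 4-cell stage, with a median of 46.7% over genes. At the 8-cell stage it was 96.0% at Nr5a2, 76.1% at Dppa2 and Dppa4, 65.6% at Zfp42 and 0% at Duxf3, with a median of 50.0%. The value at Duxf3 had to be 0%, since the siRif1 8-cell list held no LAD in that window.

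Genes elsewhere with a member's 4 states were ranked by the mean absolute difference in 5-Mb coverage over the 4 lists. For Dppa2, among 226 such genes, the nearest were Pecr and Tmem169 on chromosome 1 (6.15 points), Itpr2 on chromosome 6 (8.18) and Dsc1 and Dsc2 (9), and Dppa4 had the same 5. Among 360 genes with the states of the other members, the nearest to Nr5a2 were Rcor3 (1.25), Cenpf (1.83), Gsg1l2 (3.33), Zfp386 (3.77) and Glp2r (4.62). Those nearest to Zfp42 were Gsg1l2 (3.83), Bbs9 (3.99), Cenpf (4.32), Rcor3 (4.41) and Glp2r (5.13). To Duxf3 they were Trappc9 and Gm31665 on chromosome 15 (3.50), Iqsec1 (6.76) and Cebpd and Mcm4 on chromosome 16 (7). Genes at the same value lie near each other on a chromosome, so their 5-Mb windows overlap.

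None of 26 other activators and early factors had the 4 states of a member. Over all protein-coding genes 1.17% had those of Dppa2 and Dppa4 and 1.85% those of the other members, so nothing is read from this. Of the 26 genes, 21 were outside LADs in all 4 lists, where 57.4% of all protein-coding genes were. Among them were Pou5f1, Klf5, Tfap2c and Obox3. At the 4-cell stage 0 of the 26 differed between siControl and siRif1, and at the 8-cell stage 3 did: the pluripotency gene Sox2 was LAD in siRif1, and Gabpa and Zscan4c in siControl. Over all protein-coding genes 7.33% and 9.37% were LAD in siRif1 and in siControl alone at that stage, and 7.37% and 8.08% at the 4-cell stage. Of 21 transcripts of the 2-cell stage, Pramel6 and Pramel7 had the 4 states of Dppa2 (1.17% of all genes) and Gm4340 those of Duxf3 (1.85%). The arginase gene Arg2 was LAD in siControl 4-cell embryos alone (4.97% of all genes). These 3 of 21 LAD in siControl alone and 1 of 21 LAD in siRif1 alone at the 4-cell stage stand beside 8.08% and 7.37% of all genes. At the 8-cell stage Zscan4b, Zscan4c, Zscan4d, Tcstv3, Usp17lc and Usp17ld were LAD in siControl alone, and Tcstv1, Tdpoz3 and Tdpoz4 in siRif1 alone, beside 9.37% and 7.33% of all genes. Several of these are clustered relatives that share a locus.

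Of 24 repressors of the 2-cell programme, 18 were outside LADs in all 4 lists (57.4% of all genes). Max, Rybp and the histone methyltransferase gene Ehmt2 were LAD in siControl 4-cell embryos alone, as were 4.97% of all genes, and the neighbours Chaf1b and Morc3 on chromosome 16 in siRif1 8-cell embryos alone, as were 3.86%. A further list held 8 genes that share a family with a member or, for the Dppa genes, a name. Of these, Dppa1 was LAD in siControl 4-cell embryos alone (4.97% of all genes). The other 7, among them Dppa3, Nr5a1, Yy1 and Duxbl1, were outside LADs in all 4 lists (57.4% of all genes). None of the 8 had the 4 states of a member. Nothing is read from this, since 1.17% of all genes had the states of Dppa2 and Dppa4 and 1.85% those of the other members.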

How the data were processed

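LADs were mapped by DamID in 12 samples of 4 groups. Per the labels, the authors used Trimmomatic, Bowtie2, SAMtools and Picard with mm10 (GRCm38), and the series text states that each deposited list was made from all replicates of a group. Not given in the sources used here are versions, how LADs were called and whether unfused Dam was used as a control. The deposited lists give start and end of each LAD as multiples of 100 kb. Their score field was 0 throughout and was not used.

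The members and gene lists were chosen with earlier results of these data known. Genes came from RefSeq GRCm38.p6, without 333 of 47038 autosomal entries placed on scaffolds. The 20140 protein-coding genes between the first and last LAD of a chromosome were the background. A gene was in a LAD when its midpoint was. Distances ran from the midpoint to the nearest LAD start or end, and coverage was the percent of bases in LADs in the 5 Mb centred on it. Promoter windows were found for 3 of the 5 members. Coordinates are 1-based.

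Named genes were the members, the 2 nearest protein-coding genes on each side, up to 5 genes most like each member and list genes that differed between siControl and siRif1; genes of a differing stretch, and examples outside LADs in all lists, were named after their values were seen. Of the lists, 26 of 26, 21 of 23, 24 of 24 and 8 of 10 genes were placed. Interval functions were tested on simulated data. Python 3.11.15, numpy 2.4.6 and pandas 2.3.3 were used.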

Additional observations from a re-analysis of the deposited data

Results flagged for a closer look

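Differences between siRif1 and siControl embryos had opposite signs at the 4-cell and the 8-cell stage for 3 loci. Each rests on single pooled lists, and the difference between the stages was not tested. The genes were chosen by their 4-cell states, which fixed the sign of the 4-cell difference in distance at Dppa2, Dppa4 and Duxf3, so only the 8-cell sign was free to vary there.

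At Dppa2 the signed distance to the nearest border differed by -530 kb from siControl to siRif1 embryos at the 4-cell stage and by 870 kb at the 8-cell stage, 1400.0 kb apart. At its neighbour Dppa4 the values were -478 and 922 kb, also 1400.0 kb apart, from the same LADs. At both stages the nearest border was a LAD start in siControl and a LAD end in siRif1 embryos. These values are thus not shifts of a single border. The difference in 5-Mb coverage was positive at both stages (12.0 and 8.60 points at Dppa2, 12.0 and 7.56 at Dppa4). Over 2 Mb the signs were opposite (-15.7 and 4.26 points at Dppa2, -14.45 and 5.55 at Dppa4).

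At Duxf3 the distance differed by 600.0 kb at the 4-cell and -3200.0 kb at the 8-cell stage, -3800.0 kb apart. LAD coverage of the surrounding 5 Mb differed by 16.0 and -28.0 percentage points, -44.0 points apart. The 4-cell value includes the 0.6 Mb LAD in siRif1 alone by which the gene was chosen.

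At Zfp42 LAD coverage of the surrounding 5 Mb differed by 8.00 points at the 4-cell and -2 points at the 8-cell stage, -10 points apart. The 4-cell value includes the 0.3 Mb LAD in siRif1 alone by which the gene was chosen. The 8-cell value is 1 bin of the grid, and the opposite signs were not seen over 10 Mb (-16.0 and -5.01 points), over 2 Mb (15 and 0 points) or with borders moved outwards by 100 kb (12.0 and 2 points).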

How the results depend on the processing

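All 5 members kept their states in all 4 lists with LADs of at least 300 kb and with gaps of up to 200 kb bridged. These settings could not change a state here. The gaps holding members were 0.9 Mb or longer. No LAD holding a member was shorter than 300 kb, the length of that at Zfp42. The states were also the same with any base of the gene in a LAD, and for the 3 members with an annotated start when placed by it. With every border moved inwards by 100 kb, 0 members were LAD in siRif1 4-cell embryos, with signed distances of -98.5 kb at Nr5a2, -99.0 kb at Zfp42 and -68.7 kb at Duxf3. Of all genes LAD in siRif1 alone at that stage, 21.8% left LADs under this change. With borders moved outwards, Nr5a2 lay 1.50 kb inside LADs in siControl 4-cell and in siRif1 8-cell embryos, and Dppa4 lay 11.0 kb inside in siRif1 4-cell embryos. Counting Dppa2 and Dppa4 as 1 locus, an alternative added after seeing the data, left 1 locus in LADs of siControl 4-cell, siControl 8-cell and siRif1 8-cell embryos. Without Duxf3, also added later, no count moved by over 1.5 times.

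The sign of the coverage difference between siRif1 and siControl turned with the window. At the 4-cell stage it was -15.7 points over 2 Mb and -6.15 over 10 Mb at Dppa2, -14.45 and -5.89 at Dppa4, and -16.0 over 10 Mb at Zfp42. At the 8-cell stage it was -0.85 at Dppa2 and -1.11 at Dppa4 over 10 Mb, and 2.00 at Zfp42 with borders moved outwards. No paired analysis was possible because each list pools its replicates, and leaving out a replicate could not be run for the same reason.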
